A study of Mus musculus with 36 samples.

Results

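The livers of 36 mice were examined for the genes that move and store zinc: 5 zinc importers of the ZIP family (Slc39a1, Slc39a4, Slc39a5, Slc39a8 and Slc39a14), 2 exporters of the ZnT family (Slc30a1 and Slc30a10), the metallothioneins Mt1 and Mt2, and the zinc-sensing transcription factor Mtf1. These 10 genes, of 13042 genes with a symbol in the authors' processed table, were taken by their symbol on the array or by the current symbol of the probe's accession. The array holds 19 probes for them, and 17 of those were in the processed table, with at least 1 for each gene. The set was chosen by the change of Slc39a4 from baseline, which was known to be lower after 12 weeks in both diets, so changes from the start of the study are given here as descriptions without a test. The comparison of quercetin with control was not used for that choice of genes and was tested. Earlier results of these data were known, however, when the members and gene lists were chosen.

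All mice were adult males on a mild-high-fat diet with 30% of energy from fat, of a strain given as C57BL/6J in the labels and as C57BL/6JOlaHsd in the study's methods. They were fasted for at least 2 hours before they were killed. The baseline group (n = 12) was killed after an adaptation of 3 weeks on that diet, per the labels (the study's methods give 2 weeks), with 0 weeks of intervention. The control group (n = 12) then ate the same diet for another 12 weeks. The quercetin group (n = 12) ate it for 12 weeks with 0.33% (w/w) quercetin, a plant flavonoid. The baseline mice were also younger than the other mice at killing, so that age and time on the diet cannot be told apart. Each Agilent array carried Cy5-labelled cRNA of a single liver against a Cy3-labelled pool of all livers, and the 36 arrays lay on 9 slides of 4. Levels are log2 values in the authors' table, in which a difference of 1 means a factor of 2. Each probe has its own offset, so levels are compared between mice for 1 probe and never between genes. A whole liver was measured, and less RNA per cell cannot be told from fewer cells of a type.

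Zinc is carried into the cytosol by the ZIP proteins and out of it, or into vesicles, by the ZnT proteins. Free zinc is kept very low by the metallothioneins, small cysteine-rich proteins that bind zinc and copper. When cytosolic zinc rises, MTF1 binds zinc and then metal response elements in the promoters of Mt1, Mt2 and Slc30a1. In liver, inflammatory cytokines and glucocorticoids also raise Mt1 and Mt2, and interleukin 6 raises Slc39a14.

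The arrays of 3 mice bear on the results below. Quercetin replicate 2 had 96.7% of its spots well above background, against 56.4% to 67.4% on the other 35 arrays. Control replicate 5 carried a strong signal of pancreatic acinar genes, which encode digestive enzymes. The mean level of those 10 markers was 19.0 in that mouse and at most 9.28 in any of the other mice. Quercetin replicate 4 had the highest level of all mice for Saa1, Saa2, Saa3, Lcn2, Hp and Socs3, which are acute phase or cytokine-response genes, and the mean of the 16 acute phase genes was 15.9 there against at most 14.8 elsewhere. The iron gene Hamp, examined beside them, was low in that mouse, at 15.57 against 15.17 to 17.06 in the other 35, and ranked 35 from the highest. The 5 hepatocyte markers were well above background on all arrays, with a mean level of 16.4 to 17.1.

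Slc39a4 was the member with the largest difference from baseline, and it was lower in both diets. The gene encodes ZIP4, best known as the intestinal zinc importer whose loss causes the zinc deficiency acrodermatitis enteropathica. Its single probe (A_51_P103222, chromosome 15, bases 76439691 to 76439750 of mouse build mm8) was well above background on all 36 arrays and was saturated on none. In the baseline mice the level ranged from 13.54 to 14.16 with a median of 13.92, and in the control mice from 12.16 to 13.12 with a median of 12.53. In the quercetin mice it ranged from 12.24 to 13.56 with a median of 12.91. Every control mouse thus lay below every baseline mouse. Among the quercetin mice, replicate 1 at 13.56 was just above the lowest baseline level, and the other 11 were below it.

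The group means of Slc39a4 were 13.92 ± 0.21 in baseline, 12.60 ± 0.30 in control and 12.85 ± 0.35 in quercetin mice (SD, n = 12 each). Control minus baseline was -1.31 log2 units, a 2.49-fold difference, so that 40.2% of the baseline level was left. The quercetin mean was 2.10-fold under baseline, or 47.6% of it. Within the 9 slides, the control and the quercetin means of Slc39a4 were both under the baseline mean of the same slide on 9 slides. Only 10 of the 21781 probes in the table had a more negative control minus baseline difference, and 4 had a more negative quercetin minus baseline difference. Control mice all below the baseline mice were seen for 0.363% of all probes, and 1 of the 10 members was among them. That member was Slc39a4 itself, by whose fall the set was chosen, so its rank and this count are descriptions only. Over the alternatives tried, the difference of Slc39a4 from baseline stayed between -1.41 and -1.19 in control mice and between -1.13 and -0.95 in quercetin mice. Both comparisons share the baseline arrays.

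**Figure D1:**
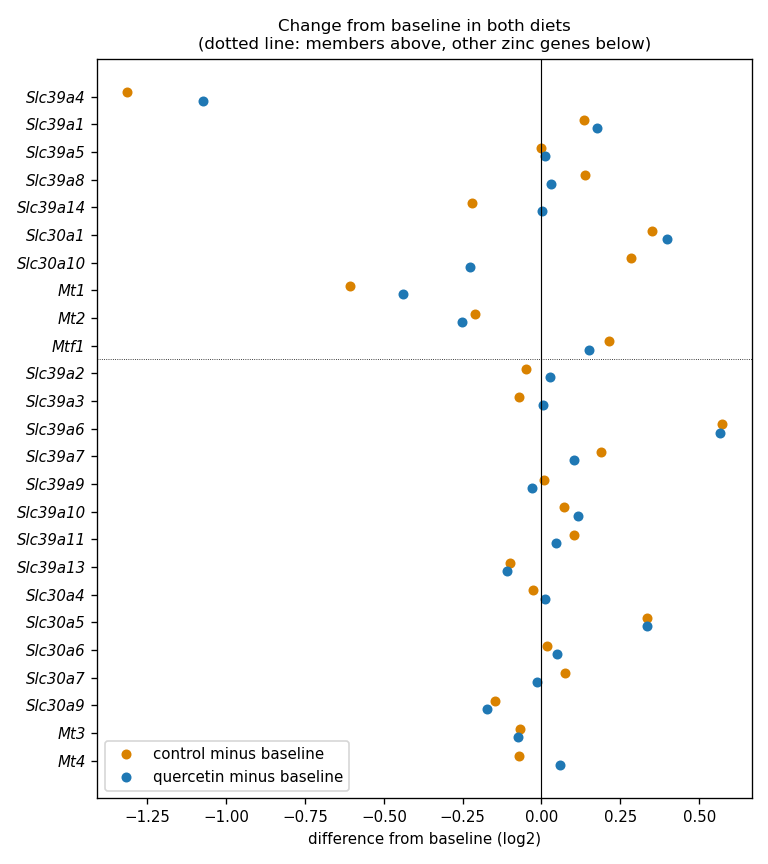
Difference from the baseline mean (x axis, log2 units) for the brightest probe of each gene, with control minus baseline in orange and quercetin minus baseline in blue. Members stand above the dotted line and other zinc transporters and metallothioneins below it. Slc39a4 lies far to the left in both diets (-1.31 and -1.07), Mt1 is next among the lower values, and Slc39a6 lies furthest to the right (0.57 in both).

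Slc39a14 encodes ZIP14, which takes up zinc, manganese and non-transferrin-bound iron in hepatocytes. Its brighter probe (A_51_P282983) had a mean of 11.25 ± 0.17 in baseline, 11.03 ± 0.17 in control and 11.25 ± 0.29 in quercetin mice. All 12 control mice lay below the baseline median at this probe, and also at the other probe of the gene (A_51_P324110), where the control mean was again 0.22 lower. The quercetin mean of the brighter probe was within 0.01 of baseline. Quercetin replicate 4 had the highest Slc39a14 of all mice, at 12.07 against 10.74 to 11.47 in the other 35.

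Slc39a8 encodes ZIP8, a zinc and manganese importer. Its brightest probe (A_52_P485939) averaged 10.04 ± 0.18, 10.18 ± 0.21 and 10.07 ± 0.13 in baseline, control and quercetin mice. The dim second probe (A_51_P334093) was 0.17 lower in control than in baseline mice while the bright probe was 0.14 higher, so the probes disagreed in direction. Another probe was not in the processed table. Slc39a1, a widely expressed zinc importer, averaged 12.62 ± 0.10, 12.76 ± 0.17 and 12.80 ± 0.24 at its bright probe (A_51_P106868), and its highest value, 13.40, again belonged to quercetin replicate 4. Its dim probe (A_52_P257023) differed from baseline by 0.01 in control and 0.08 in quercetin mice.

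Slc39a5, an importer known from pancreas, intestine and liver, was barely measurable. Its probe (A_51_P206235) was well above background on 5 of the 36 arrays, namely 1 baseline, 3 control and 1 quercetin array. Control replicate 5, with the acinar signal, read 7.91 and quercetin replicate 2, with the raised signal over the whole array, read 7.86, whereas no baseline mouse exceeded 6.55. The other control and quercetin mice were at or below 6.47. Without control replicate 5, the SD of Slc39a5 in the control group went from 0.55 to 0.23. No group difference was detectable for this gene at that signal.

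**Figure D2:**
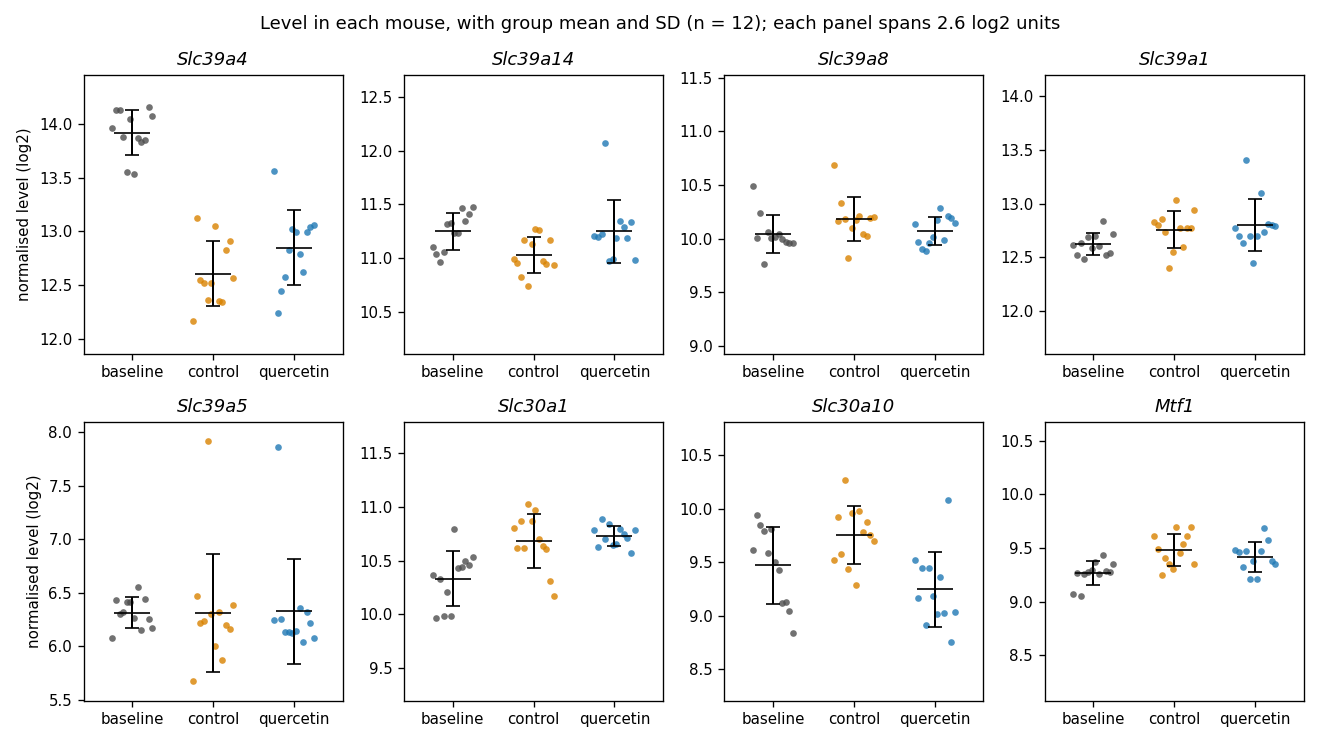
Level of 8 members in each mouse (y axis, normalised log2 level of the brightest probe; x axis, group, with mice ordered by replicate number inside a group). Points are single mice, and bars give the mean and SD of 12 mice. The baseline and control points of Slc39a4 do not overlap, the quercetin points of Slc30a10 are mostly under the control mean, and single high points stand out for Slc39a14, Slc39a1 and Slc39a5.

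Slc30a1 encodes ZnT1, the zinc exporter of the plasma membrane and a classic MTF1 target. At its brighter probe (A_51_P300572), baseline mice ranged from 9.97 to 10.79, control mice from 10.17 to 11.02 and quercetin mice from 10.57 to 10.89. The groups overlapped, but 10 of 12 control mice and 12 of 12 quercetin mice were above the baseline median. The means were 10.33 ± 0.25, 10.68 ± 0.25 and 10.73 ± 0.09, which put control 0.35 and quercetin 0.40 above baseline. The other probe (A_51_P250378) gave 0.24 and 0.32. Slc30a1 was the member with the largest higher value over baseline in both diets.

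Mtf1 itself averaged 9.26 ± 0.11 in baseline, 9.48 ± 0.15 in control and 9.42 ± 0.14 in quercetin mice at its brightest probe (A_52_P236072). The control mean was above the baseline mean on 9 of 9 slides at that probe, by 0.03 to 0.54. The second probe (A_52_P467266) differed by 0.07 in control and by -0.05 in quercetin mice, and another was not in the processed table.

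Slc30a10 was the member that differed between the diets. The gene encodes ZnT10, which despite its family name works mainly as a manganese exporter of liver and intestine. Control mice ranged from 9.28 to 10.27 with a median of 9.77 at probe A_51_P173445, and quercetin mice from 8.75 to 10.08 with a median of 9.17. The groups overlapped, with 5 quercetin mice above the lowest control mouse. Replicate 10, at 10.08, was above the control median and the other 11 quercetin mice were under it. The means were 9.75 ± 0.27 in control and 9.25 ± 0.35 in quercetin mice (SD, n = 12 each). Quercetin was therefore 0.51 log2 units lower (95% interval -0.76 to -0.26), a 1.42-fold difference with adjusted p = 0.0205 (limma, two-sided, Benjamini-Hochberg over 21781 probes). The second probe (A_52_P883557) gave -0.50 with adjusted p = 0.0392 in the same fit. Quercetin was lower on 8 of 9 slides.

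Slc30a10 was the single call among the 10 members, in the lower direction, where 0.863% of all probes were called lower, 1.49% higher and 2.36% in either direction. The median difference over the 10 members was 0.03, against 0.01 over all probes. The call on Slc30a10 held without quercetin replicate 4 (-0.48, adjusted p = 0.0353, limma) and without control replicate 5 (-0.54, adjusted p = 0.0140). It was lost without both quercetin replicates 2 and 4 (-0.47, adjusted p = 0.0586), with the slide as a fixed block (-0.47, adjusted p = 0.102) and with the Cy5 channel alone (-0.54, adjusted p = 0.106).

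**Figure D3:**
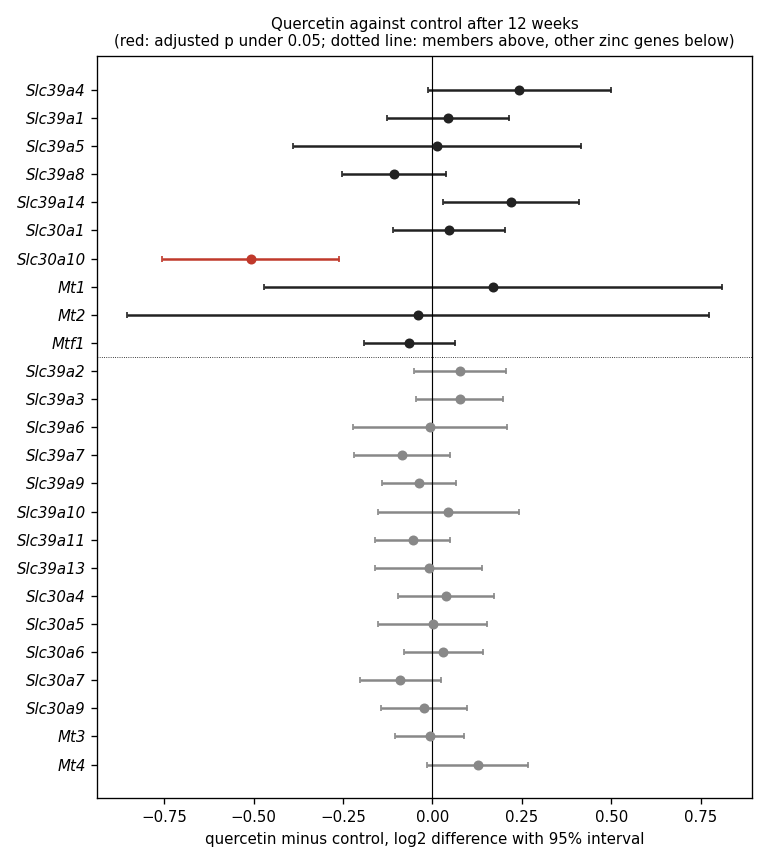
Quercetin minus control after 12 weeks (x axis, log2 difference of the brightest probe with its 95% interval from limma, n = 12 in each group) for 10 members and 15 other zinc genes. Slc30a10, in red, is the gene with adjusted p under 0.05 (-0.51). Mt1 and Mt2 have the widest intervals, reaching from -0.47 to 0.81 and from -0.85 to 0.77.

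The baseline mice spread widely for Slc30a10, from 8.84 to 9.94 with a mean of 9.47 ± 0.36. Baseline replicates 1 to 6 read 9.58 to 9.94, and replicates 7 to 12 read 8.84 to 9.5, a split by number that was noticed after the values had been seen. At the other probe of the gene these sets of replicates overlapped, at 9.40 to 9.95 and 8.90 to 9.55. At probe A_51_P173445 the control mean was 0.28 above baseline and the quercetin mean 0.23 below it. Clock genes also differed between the diets, where 2.36% of all probes were called. Of 12 clock genes in the table, 4 were higher (Dbp, Tef, Nr1d2 and Per3) and 2 were lower (Arntl and Clock) in quercetin than in control mice. Arntl, which encodes the clock activator BMAL1, was 1.00 lower (adjusted p = 0.0034, limma). Between mice, after each group's mean had been subtracted, Slc30a10 followed Arntl with Pearson's r = 0.792 and Spearman's rho = 0.797 (n = 36). Both had a permutation p of 1e-05, the smallest that 100000 resamples within groups can give, and adjusted over the 2 probes p = 1e-05. The r was 0.763 without the 2 mice farthest out in Arntl (baseline replicates 3 and 12), and it was 0.924, 0.737 and 0.664 within baseline, control and quercetin mice. Arntl was also mostly higher in baseline replicates 1 to 6 (8.06 to 9.45) than in replicates 7 to 12 (7.10 to 8.20). The r within baseline mice thus runs along the split by number. The second Slc30a10 probe gave r = 0.787 (rho = 0.800). This pair was examined after the values had been seen, and the adjustment covers the 2 probes but not that choice of pair. Whether other genes followed Arntl as closely was not tested. With the level of Arntl as a covariate the quercetin difference of Slc30a10 was -0.071 (adjusted p = 0.849, limma), and in that fit 1 of all 21781 probes was called, against 513 without the covariate. Arntl itself differed between the diets, so diet and Arntl cannot be told apart in that fit. A part of the clock in the Slc30a10 difference was not tested.

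**Figure D4:**
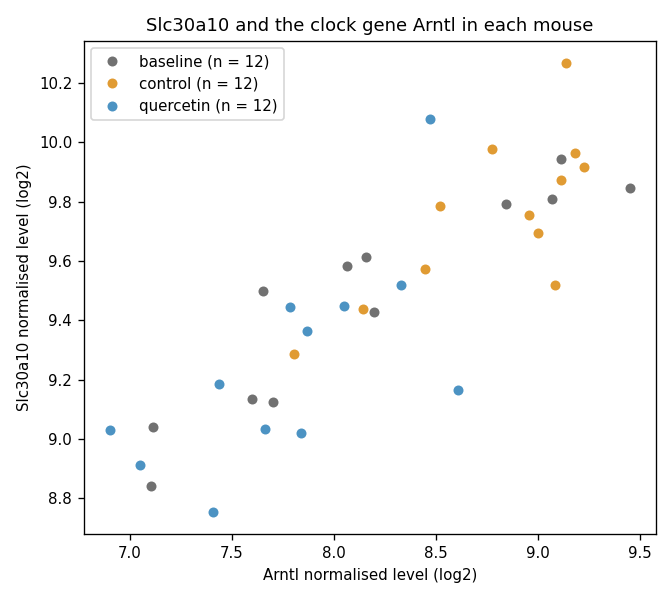
Level of Slc30a10 (y axis, probe A_51_P173445) against the level of the clock gene Arntl (x axis) in each of the 36 mice, both as normalised log2 levels. Mice of all 3 groups lie along a common rising band, with most quercetin mice toward its lower left and most control mice toward its upper right (r = 0.792 after each group's mean had been subtracted).

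None of the other members was called between the diets. Slc39a4 was 0.24 higher with quercetin (95% interval -0.01 to 0.50, adjusted p = 0.352, limma), and 10 of 12 quercetin mice were above the control median. Slc39a14 was 0.22 higher (0.03 to 0.41, adjusted p = 0.239) and 0.15 higher without quercetin replicate 4 (adjusted p = 0.279). For Slc30a1, Slc39a1, Slc39a8 and Mtf1 the intervals lay within -0.25 to 0.21. That of Slc39a5 was -0.39 to 0.41. Across 19 alternatives the difference of Slc39a4 ranged from 0.21 to 0.33 without a call.

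Mt1 and Mt2 varied more between mice than any other member. Mt1 is represented by 10 spots of probe A_51_P294979 (chromosome 8, bases 97069240 to 97069299 of mm8), and Mt2 by a spot of A_51_P246317 (bases 97062600 to 97062659), so the genes are close neighbours. Their promoter windows, 250 bases before to 50 bases after the start site in RefSeq's GRCm38.p6 annotation, are shown with those of Slc30a1 and Slc30a10, because MTF1 acts through such windows. Capitals mark a match to the core of the metal response element, taken as TGCACNC or TGCGCNC on either strand, and overlapping matches run together.

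Mt1: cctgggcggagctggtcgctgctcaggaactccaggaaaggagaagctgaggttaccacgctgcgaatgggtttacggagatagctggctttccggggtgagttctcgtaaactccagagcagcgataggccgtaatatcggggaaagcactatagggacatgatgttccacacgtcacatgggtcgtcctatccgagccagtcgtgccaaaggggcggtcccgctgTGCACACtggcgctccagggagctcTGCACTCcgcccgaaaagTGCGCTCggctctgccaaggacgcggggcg

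Mt2: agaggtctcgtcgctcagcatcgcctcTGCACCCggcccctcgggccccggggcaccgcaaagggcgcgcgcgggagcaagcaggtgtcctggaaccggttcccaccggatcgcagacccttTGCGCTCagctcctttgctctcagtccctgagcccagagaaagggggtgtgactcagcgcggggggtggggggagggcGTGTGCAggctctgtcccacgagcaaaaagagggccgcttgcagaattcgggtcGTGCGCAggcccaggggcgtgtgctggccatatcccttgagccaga

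Slc30a1: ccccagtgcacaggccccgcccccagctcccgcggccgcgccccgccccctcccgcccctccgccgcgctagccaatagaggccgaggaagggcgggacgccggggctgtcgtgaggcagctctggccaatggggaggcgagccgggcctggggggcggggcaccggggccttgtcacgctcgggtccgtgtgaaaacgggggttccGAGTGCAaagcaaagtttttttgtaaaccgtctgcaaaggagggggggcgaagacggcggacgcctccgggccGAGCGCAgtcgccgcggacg

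Slc30a10: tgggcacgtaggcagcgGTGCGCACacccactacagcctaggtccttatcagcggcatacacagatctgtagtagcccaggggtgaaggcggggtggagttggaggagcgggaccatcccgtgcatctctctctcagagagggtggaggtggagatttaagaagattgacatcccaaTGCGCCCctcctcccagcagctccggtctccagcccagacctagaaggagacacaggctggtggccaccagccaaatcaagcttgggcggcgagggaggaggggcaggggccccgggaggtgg

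These windows lie on the + strand at chr8:94178839-94179138 for Mt1, chr8:94172368-94172667 for Mt2, chr1:191906531-191906830 for Slc30a1 and chr1:185454598-185454897 for Slc30a10. They hold 3 cores for Mt1, 4 for Mt2, 2 for Slc30a1 and 3 for Slc30a10, the last with an overlapping pair on opposite strands. Of 32851 promoter windows of 300 bases, 25.7% hold at least 1 such core and 1.97% hold 3 or more. The windows of Slc39a1 and Mtf1 hold none. Slc39a5 and Slc39a8 have 2 windows each, of which 1 holds a core and the other none. Windows of Slc39a4 and Slc39a14 were not analysed here. A match to these letters is a description of the sequence and does not show binding.

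Mt1 ranged from 9.92 to 12.17 in baseline mice (median 10.78), from 9.74 to 11.56 in control mice (median 10.28) and from 9.86 to 13.87 in quercetin mice (median 10.21). Mt2 ranged from 9.94 to 12.91 (median 11.04), from 10.25 to 12.31 (median 11.12) and from 10.46 to 15.54 (median 10.80). The top value of both genes came from quercetin replicate 4, the mouse with high acute phase genes, where Mt1 was 13.0-fold and Mt2 27.5-fold over the median of the other quercetin mice. The top control value of both genes was that of control replicate 5. Baseline replicates 4, 8 and 9 were also high, with Mt1 at 11.88, 11.67 and 12.17.

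The mean of Mt1 was 10.93 ± 0.66 in baseline, 10.32 ± 0.44 in control and 10.49 ± 1.1 in quercetin mice, and 11 of 12 control mice and 10 of 12 quercetin mice were under the baseline median. The dimmer Mt1 probe (A_52_P423810) differed from baseline by -0.41 in control and -0.14 in quercetin mice. For Mt2 the means were 11.43 ± 1.02, 11.22 ± 0.60 and 11.18 ± 1.38. Here 6 of 12 control mice and 10 of 12 quercetin mice were under the baseline median. Quercetin minus control was 0.17 for Mt1 (-0.47 to 0.81, adjusted p = 0.827, limma) and -0.04 for Mt2 (-0.85 to 0.77, adjusted p = 0.971). Without quercetin replicate 4 these differences became -0.14 (adjusted p = 0.672) and -0.44 (adjusted p = 0.215), and the quercetin minus baseline differences went from -0.44 to -0.75 for Mt1 and from -0.25 to -0.65 for Mt2. No call on the metallothioneins depended on that mouse.

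**Figure D5:**
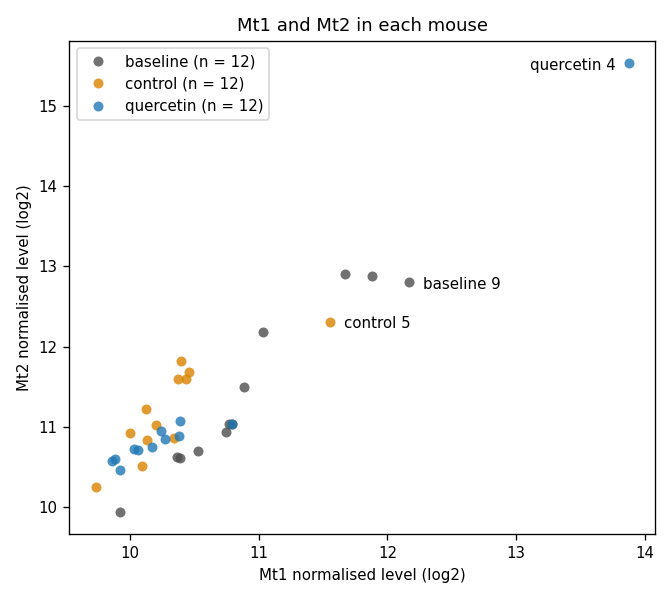
Mt2 (y axis) against Mt1 (x axis) in each of the 36 mice, both as normalised log2 levels, coloured by group. The genes rise together over all groups (r = 0.962 after each group's mean had been subtracted), and quercetin replicate 4 stands apart at 13.87 and 15.54.

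Between mice, Mt1 and Mt2 moved together. After each group's mean had been subtracted, Pearson's r was 0.962 and Spearman's rho 0.911 over 36 mice, each with p = 1e-05 (the smallest that 100000 permutations within groups can give) and an adjusted p of 0.00011 over a family of 11 genes set against Mt1. Without the 2 mice farthest out in Mt1, quercetin replicate 4 and baseline replicate 9, r was 0.906. It was 0.961 within baseline, 0.837 within control and 0.878 within quercetin mice without replicate 4. The measured levels of their neighbours on chromosome 8, Mt3 and Mt4, did not share that spread. The probes of Mt3 and Mt4 were dimmer, at 9.96 and 2.9 times background, against 42.2 for Mt1 and 81.1 for Mt2. Differences of dim probes are compressed here, so a steady transcript cannot be told from little measured transcript, above all for Mt4. The SD between mice within groups was 1.05 for Mt2 and 0.78 for Mt1, but 0.09 for Mt3 and 0.16 for Mt4. Mt3 and Mt4 had r of -0.08 and 0.09 with Mt1. In quercetin replicate 4 they stood at 8.86 and 7.16, which ranked 29 and 13 from the highest of 36 mice.

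The other relations of Mt1 were weaker. Slc30a10 was lower in mice with higher Mt1 by rank (rho = -0.507, permutation p = 0.00189, adjusted p = 0.0104, n = 36), whereas Pearson's r was -0.388 (permutation p = 0.0409, adjusted p = 0.0961). Without the 2 farthest mice r was -0.351. Slc39a14 had r = 0.510 with Mt1 (rho = 0.107, adjusted permutation p = 0.0961 and 0.585), but r was -0.141 without the farthest 2, so the relation rested on those mice. The same held for the acute phase gene Saa2, with r = 0.542 (rho = 0.175, adjusted permutation p = 0.0961 and 0.494) and 0.186 without them. The glucocorticoid-responsive Fkbp5 had r = 0.397 (rho = 0.319, adjusted permutation p = 0.091 and 0.221) and 0.366 without them. The remaining 6 members had |r| of at most 0.426 with Mt1 and no adjusted p under 0.05.

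Among 13041 other genes, those whose level followed Mt1 most closely over the 36 mice, after subtracting group means, were Mt2 (r = 0.962), the chemokine Cxcl1 (0.841), the talin Tln2 (0.774), the inositol synthase Isyna1 (0.767) and Lcn2 (0.766), which encodes the iron-scavenging lipocalin 2. Without quercetin replicate 4 these became 0.917, 0.604, 0.301, 0.389 and 0.374. Genes most like Slc39a4 included C1qtnf5 (0.601), Cdpf1 (0.553), Fam167b (0.545) and Pcolce (0.536), which encodes an enhancer of procollagen processing. These r values are the top of a search over 13041 genes and were not tested, so they do not show that the genes vary together. The group means of these genes did not drop with Slc39a4: C1qtnf5, for instance, averaged 9.53 ± 0.14 in baseline and 9.68 ± 0.14 in control mice.

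The other members of these families were taken as a list of 19 genes, of which 15 were in the table. In control against baseline mice 3 of the 15 rose and none fell, where 10.9% of all probes were called higher and 10.4% lower. Slc39a6, which encodes the plasma membrane importer ZIP6, rose by 0.57 (standard error 0.07, adjusted p = 5.69e-06, limma), and 12 of 12 control mice were above the baseline median. Slc30a5, which encodes the ZnT5 that loads zinc into the secretory pathway, rose by 0.33 (adjusted p = 0.00422), and its other probe also rose by 0.32 (adjusted p = 0.00169). Slc39a7, which encodes ZIP7 and releases zinc from the endoplasmic reticulum, rose by 0.19 (adjusted p = 0.0477), a call that 17 of the 24 mice ended when left out in turn (0.16 to 0.22, highest adjusted p = 0.0826).

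In quercetin against baseline mice, 2 of the 15 rose, where 6.62% of all probes were called higher and 5.3% lower. Slc39a6 was up by 0.57 (adjusted p = 0.000716, limma) and Slc30a5 by 0.33 (adjusted p = 0.00388), with 12 of 12 quercetin mice above the baseline median for each. None of the 15 was called between quercetin and control, and their differences spanned -0.09 to 0.13. Slc39a2, Slc39a3, Slc39a9, Slc39a10, Slc39a11, Slc39a13, Slc30a4, Slc30a6, Slc30a7, Slc30a9, Mt3 and Mt4 were called in none of the 3 comparisons, with differences of -0.17 to 0.13. Slc39a12, Slc30a2, Slc30a3 and Slc30a8 were not among the probes of the processed table.

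Genes outside the transporter families were read against the same shares, with 21.3% of all probes called in either direction for control against baseline and 11.9% for quercetin against baseline. Between the diets the share was 2.36%. Of 6 genes reported to depend on MTF1, 0 were called between the diets. Gclc, the catalytic subunit of glutathione synthesis, rose by 0.39 in control against baseline mice (adjusted p = 0.0429, limma), and Ndrg1 fell by 0.36 in quercetin against baseline mice (adjusted p = 0.0236). The call on Gclc was made under 7 of 16 alternatives, and that on Ndrg1 under 15 of 19. Of 14 iron, copper and manganese transport genes, 0 were called between the diets, 2 rose in control mice over baseline (the copper transporters Slc31a2 by 0.21 and Atp7a by 0.14), and in quercetin mice the ferritin subunits Fth1 and Ftl1 rose by 0.21 and 0.18 while Cp, ceruloplasmin, fell by 0.21. Left out in turn, 10 of 24 mice ended the call on Atp7a, 18 that on Ftl1 and 5 that on Fth1.

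Of 10 liver enzymes that carry zinc, 1 rose and 5 fell in control against baseline mice. The deepest fall was that of Bhmt, the zinc-dependent betaine-homocysteine methyltransferase, by 1.00 (adjusted p = 2.52e-05, limma), and Lta4h, Acy1 and Dpys fell by 0.31, 0.30 and 0.27. Sord fell by 0.20 and Sod1, the copper-zinc superoxide dismutase, rose by 0.25. In quercetin against baseline mice Bhmt fell by 1.37 (adjusted p = 8.38e-05), while Sod1 rose by 0.26 and Alad by 0.16. Between the diets 1 of the 10 was called: Sord, sorbitol dehydrogenase, was 0.27 higher with quercetin (adjusted p = 0.015). It was called under 15 of 19 alternatives (0.14 to 0.40) and whichever mouse was left out, and not with normexp and median centring, Cy5 alone, the slide as a fixed block or Arntl as a covariate. The rise of Sod1 in control mice became -0.12 (adjusted p = 0.217) when its probes were averaged. Its rise in quercetin mice over baseline was called under 15 of 19 alternatives (0.04 to 0.38). Against baseline, leaving out mice in turn ended the call on Sod1 in control mice for 8 of 24, on Sord for 12 and on Alad for 16.

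Of 6 glucocorticoid-responsive genes in the table, Fkbp5, a chaperone of the glucocorticoid receptor, fell by 1.17 from baseline to control (adjusted p = 0.00045, limma) and was 0.77 higher with quercetin than in control mice (adjusted p = 0.04). That second call was made under 8 of 19 alternatives (0.51 to 0.99), and 13 of the 24 mice ended it when left out in turn (highest adjusted p = 0.0735), quercetin replicates 2 and 4 among them. The fall from baseline to control was called under all 15 alternatives that measured it. Sgk1 rose by 0.23 from baseline to control. Most of the list did not move with Fkbp5. Between the diets 2 of the 6 genes were above 0 and 4 below, with a median difference of -0.22. From baseline to control 4 were above 0 and 2 below, with a median of 0.15. Of 16 acute phase genes, Lcn2 and Orm2 fell by 0.54 and 0.31 from baseline to control (the latter not called without baseline replicate 8 or 11), and 0 were called in either comparison with quercetin mice. The mean level of that list ranged from 14.1 to 14.8 in baseline, 13.9 to 14.5 in control and 14.0 to 15.9 in quercetin mice. Among the clock genes, Nfil3 rose by 0.53 and Per3 fell by 0.28 from baseline to control (the latter called under 4 of 15 alternatives), and none was called between quercetin and baseline.

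Markers of other liver cells were read beside the changes from baseline. Of all probes, 21.3% were called between control and baseline, 11.9% between quercetin and baseline and 2.36% between the diets. The 6 Kupffer cell markers were all above baseline in both diets, by a median of 0.31 in control and 0.30 in quercetin mice, with 0 called. Of the 4 bile duct markers, 3 rose from baseline to control and 1 was lower with quercetin than in control mice. Of the 5 endothelial markers 1 fell from baseline to control and 1 was higher with quercetin than in control mice. Between the diets 2 of these 5 were above 0 and 3 below. None of the 5 stellate cell and fibroblast markers was called in any comparison. Of the 5 hepatocyte markers 1 fell in control and 2 fell in quercetin mice against baseline. Of 4 blood cell markers measured, 1 rose in both diets and 1 fell in quercetin mice. Their part in the changes of the zinc genes was not tested.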

How the data were processed

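Liver RNA of 36 mice (12 in each of 3 groups, taken from the sample titles) was measured on 2-colour Agilent arrays. Per the labels, the authors quantified the scans with Agilent Feature Extraction 10.5.1.1 (an earlier version is named in the methods). The deposited scanner files give linear spot intensities in both channels for mouse build mm8. The authors' deposited processed table holds log2 values of 23256 spots. Set against the scanner files, these equal the log2 ratio of the raw Cy5 and Cy3 medians plus the spot's mean log2 Cy3, with each array centred at the same median (lowest correlation 0.9999). Background was not subtracted and no intensity-dependent correction was made, so differences of dim probes are compressed.

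Spots of a probe were averaged (21781 probes). Of these, 16104 were named by accession, 3472 by another known name and 2205 had no symbol. A gene with several probes is represented by the brightest. Each pair of groups was fitted by limma with lmFit and eBayes (two-sided tests), calling adjusted p under 0.05 over all probes. Members were chosen because of the change from baseline, and the members and gene lists were chosen with earlier results of these data known. Named were all members with every probe, every other zinc transporter and metallothionein, the called genes of the other lists (at most 4 per comparison with the largest difference, and in addition Sord among the zinc enzymes and Per3 among the clock genes), and the 5 genes most like Slc39a4 and Mt1, of which 1 is not reported here. Genes outside this rule, such as Saa1, Saa3, Hp, Socs3, Saa2 and Hamp, were named after their values were seen. Correlations used 100000 permutations within groups. The study's methods give individual housing for the control and quercetin mice. P-values of the fits set a group difference against the spread between mice of a group. Each mouse had a single array, so variation between mice and between arrays cannot be told apart. The main fits did not pair the mice. Residuals of control and quercetin mice with the same replicate number had a median correlation of -0.01 over 12 pairs, and 3 exceeded 0.1. For baseline and control mice the median was 0.06 and 4 exceeded 0.1, and for baseline and quercetin mice 0.03 and 4. These correlations cannot show that the numbers carry no order. The 19 alternatives changed the background correction, normalization, filter, test, slide, array position, replicate block, array weights or probe rule, or left out mice. Of these, leaving out quercetin replicate 4, or replicates 2 and 4, and the Arntl covariate were chosen after seeing the data, as was a separate fit of the members without control replicate 5. The fits were tested on simulated data.

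Software was limma 3.58.1 with statmod 1.5.0 under R 4.3.3, data.table at version 1.17.8, and for the figures matplotlib 3.10.9 under Python 3.11.15. Promoter windows came from RefSeq (GRCm38.p6).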

Additional observations from a re-analysis of the deposited data

Results flagged for a closer look

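Slc30a10 differed between the diets in its change from baseline. The change in the quercetin group minus that in the control group was -0.51 log2 units, which is the tested quercetin minus control difference, with adjusted p = 0.0205 (limma). Control mice averaged 0.28 above and quercetin mice 0.23 below the baseline mean. It was lower with quercetin in 11 of 12 mice against the control median.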

How the results depend on the processing

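The difference of Slc30a10 between the diets was negative under all 19 alternatives (-0.56 to -0.071) and called under 15. It was not called with the Cy5 channel alone (-0.54), the slide as a fixed block (-0.47), without quercetin replicates 2 and 4 (-0.47) or with Arntl as a covariate (-0.071), and under these 4 the number of members called was 0. Leaving out each mouse in turn kept it called. With the replicate number as a block it was -0.51 (adjusted p = 0.0444), and the number of probes called went from 513 to 360. That block changed no other call on a member. Calls over all probes between the diets were 77 with normexp and median centring, 180 with Cy5 alone, 210 with the slide as a fixed block, 804 with array weights, 302 when the probes of a gene were averaged (over 13042 genes) and 1 with the Arntl covariate. Normexp with median centring of the scanner values, in place of the processed table, also moved the control minus baseline calls from 2384 higher and 2261 lower to 3081 and 543, and left 396 quercetin minus baseline calls in place of 2596. Those were 1166 with Cy5 alone and 4220 with array weights, and control minus baseline calls were 3063 with Cy5 alone and 2809 with averaged probes (1605 for quercetin minus baseline).

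Summed over the 3 comparisons, the other zinc list had 5 calls, and 3 with Cy5 alone. The MTF1-dependent list had 2 calls, 0 without a filter, and 1 under normexp and loess, Feature Extraction signals, normexp and median centring, Cy5 alone, quantile normalization, slide block, array position, replicate block and the methods' t-test. The metal transport list had 5, with 2 for Cy5 alone and 3 under normexp and loess, normexp and median centring, no filter, slide block and all 36 arrays in one fit. The zinc enzymes had 10, with 3 under normexp and median centring and 6 with Cy5 alone. The glucocorticoid list had 3, with 1 under Cy5 alone, slide block and replicate block, and 5 with array weights. The acute phase list had 2, with 4 under normexp and loess, Feature Extraction signals and no filter, 5 under quantile normalization, 6 with array weights, 1 under normexp and median centring, signal over 4 times background and slide block, and 0 with all 36 arrays in one fit. The clock list had 8, with 4 under normexp and median centring and slide block. The cause of these changes was not tested. Of the values for single comparisons, 747 stayed the same, and the 61 that moved were counts of these lists.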
